A study of Mus musculus with 4 samples.

Results

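The 10 genes described here carry heme and iron into, through and out of immune cells: Hmox1, Blvrb, Slc48a1, Cd163, Slc40a1, Slc11a1, Fth1, Ftl1, Tfrc and Trf. They were taken by name from the expression matrices of CD45+ cells of the mouse dura mater and brain, where they are 10 of 19491 genes listed in any library, and all 10 were listed in all 4 libraries. CD45, the common leukocyte surface marker, was used to sort the cells by flow cytometry from enzymatically dissociated tissue of C57BL/6J mice aged 8 weeks, and the sorted cells were loaded on the 10X Chromium 3′ platform. The injured animals (D3) were collected 3 days after photothrombotic injury (PTI), in which light through the skull activates a dye in the blood and closes vessels of the meninges and brain beneath it. The control animals (S3), labelled CT, are given a sham operation in the legends of the study. Brain S3, brain D3, dura S3 and dura D3 were 1 library each, and how many mice went into a library is not given in the sources used here. The labels name no allele, Cre or drug in any group. Red blood cells were lysed and TER-119, an erythroid surface marker, was among the sorting antibodies. The sort leaves out cells that lack CD45, so endothelium, neurons and glia other than microglia are outside these data.

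Heme released from lysed red cells is taken up by macrophages, on its own, inside engulfed red cells, or as hemoglobin held by haptoglobin, which CD163 binds. HRG1, the product of Slc48a1, moves heme out of the digestive vacuole into the cytosol. There heme oxygenase 1 (Hmox1) opens the ring to biliverdin, carbon monoxide and iron, and biliverdin reductases reduce biliverdin to bilirubin. Blvrb encodes biliverdin reductase B, which also reduces flavins. The freed iron is stored inside the ferritin shell, built from heavy (Fth1) and light (Ftl1) chains, or leaves the cell through ferroportin (Slc40a1), the only known iron exporter of mammals. NRAMP1 (Slc11a1) pumps iron and other divalent metals out of the phagosome, while plasma iron enters cells bound to transferrin (Trf) through the transferrin receptor (Tfrc). Macrophages of the spleen and liver recycle red cell iron by this route, and in the brain the same genes are known for their part in the clearance of blood.

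Iron also controls several of these genes after transcription, through iron regulatory proteins that bind hairpins in the messenger RNA, the iron-responsive elements (IREs). In iron-poor cells a hairpin in the 5′ UTR blocks translation, and hairpins in the 3′ UTR protect the RNA from decay. The 29-base windows that follow are shown because they divide the genes into those whose RNA level can follow iron through decay (Tfrc) and those whose RNA level does not show this control (Fth1, Ftl1, Slc40a1). They were read from GENCODE vM21 transcripts on the GRCm38 build (mm10), and each is given 5′ to 3′ with the loop bases CAGTG in capitals. The pattern searched was a C, then 5 bases, then CAGTG and 1 further base, then 5 bases that pair with the first 5, with G-T pairs allowed, on the sense strand of the UTRs only.
Fth1, 5′ UTR, chr19:9982732-9982760, plus strand: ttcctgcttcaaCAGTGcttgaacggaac
Ftl1, 5′ UTR, chr7:45459779-45459807, minus strand: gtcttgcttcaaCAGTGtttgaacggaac
Slc40a1, 5′ UTR, chr1:45925465-45925493, minus strand: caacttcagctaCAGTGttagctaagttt
Tfrc, 3′ UTR, chr16:32631219-32631247, plus strand: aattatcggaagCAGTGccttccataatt
Tfrc, 3′ UTR, chr16:32631598-32631626, plus strand: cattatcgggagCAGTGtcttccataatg
Tfrc, 3′ UTR, chr16:32631663-32631691, plus strand: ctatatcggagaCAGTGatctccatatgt
Tfrc, 3′ UTR, chr16:32631710-32631738, plus strand: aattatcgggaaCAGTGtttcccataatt
The pattern was found in 4 of the 10 genes and in 160 of 21877 coding genes (0.731%). Of 43 other heme and iron genes searched, 1 held it, Alas2, the erythroid enzyme of heme synthesis. The search reads letters only, and a gene without a match has no such run of letters in its annotated UTRs. Hmox1 (chr8:75093621-75100589, plus strand) held no match. The remaining 5 genes without a match were Blvrb on chr7, Slc48a1 on chr15, Cd163 on chr6, Slc11a1 on chr1 and Trf on chr9.

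Cells were given a class from lists of 6 markers for each of 19 immune classes, none of which is one of the 10 genes. Of 14098 cells kept, 9998 received a class and 4100 did not, and 2623 cells lay near the cutoff. A class cut from such a score is a range of cells and not a fixed type. P2ry12, Tmem119 and Gpr34 were among the leading genes of the microglia-like cells, Lyve1 and Folr2 among those of the Lyve1+ macrophages, and Gpnmb, Arg1 and Spp1 among those of the infiltrating-like macrophages. The Lyve1- macrophages had 1 of their own markers, Ms4a7, in their top 10 genes, beside Axl and the MHC class II genes H2-Aa, H2-Ab1 and H2-Eb1, and the cDC2-like cells also had 1. The Lyve1- marker list does not set that class apart by its sum, which was 17894 to 20639 CPM in the 4 Lyve1- groups, 19903 to 21429.9 in the Lyve1+ macrophages and 24863 and 25323 in the microglia-like cells of S3 and D3. The infiltrating-like macrophages numbered 817 in brain D3, 1 in brain S3, 0 in dura S3 and 2 in dura D3, so they are described in brain D3 alone. Levels are in CPM, the unique molecular identifiers (UMIs) of a gene per 1000000 UMIs of all cells of a class in a library, and are given for the 59 groups of 1 class in 1 library with at least 20 cells. Median depth was between 8252 UMIs per cell in brain S3 and 14269.5 in brain D3, and pairs of libraries shared 3 to 11 cell barcodes.

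With 1 library per condition, no difference between conditions or classes could be tested, and cells are not replicates. The 95% intervals are exact Poisson or binomial ones and cover counting error only, not the spread between mice. RNA set free during dissociation adds UMIs to every droplet, so the summed T-like and B-like cells of the same library are given as the level to read each gene against. A group is called above that level when the lower end of its interval exceeds the upper end of theirs. By this measure Fth1 and Ftl1 were above it in 39 of the 51 other groups, Trf in 38, Slc11a1 in 32, Hmox1 in 30, Cd163 and Slc40a1 in 22, Slc48a1 in 18, Blvrb in 15 and Tfrc in 3. B-like cells held more Blvrb and Tfrc than T-like cells, so for Blvrb and Tfrc the level is not one of free RNA alone. A group not above it is then not shown to lack the gene, and the same limit holds where the lymphoid CPM is subtracted.

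Hmox1, the enzyme that breaks heme open, had its highest level in the infiltrating-like macrophages of the injured brain, at 1672 CPM (95% interval 1655 to 1690.4). Lyve1+ macrophages came next, with 833 CPM in brain S3, 703 in brain D3, 568 in dura S3 and 668 in dura D3. Microglia-like cells held 701 CPM in brain S3 and 353 in brain D3. Lyve1+ macrophages and microglia-like cells were the highest classes of the control brain, and only the infiltrating-like macrophages exceeded the Lyve1+ macrophages in brain D3, all of them far above the T-like and B-like cells at 22.7, 21.2, 13.8 and 23.3 CPM in the same order of libraries. Lyve1- macrophages, which express class II genes, had 452 CPM in brain S3, 338 in brain D3, 252 in dura S3 and 227 in dura D3. Ly6C hi monocyte-like cells, the blood monocytes that enter injured tissue, had 268 CPM in brain S3, 327 in brain D3, 117 in dura S3 and 110.0 in dura D3. In both of these classes the brain libraries were higher than the dura libraries, with no overlap of intervals between tissues. Neutrophil-like cells were low, with 58.5 CPM in brain S3, 154 in brain D3, 46.1 in dura S3 and 75.8 in dura D3.

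Hmox1 was unevenly spread over the infiltrating-like macrophages. A UMI was found in 98.8% of these cells, with a median of 12 UMIs and a maximum of 1028 in 1 cell. The top 10% of the cells held 65.3% of the Hmox1 UMIs, against 50.1% in the microglia-like cells of brain S3. Once each cell was thinned to 2000 UMIs, which removes differences in depth, 66.1% of infiltrating-like cells and 33.5% of microglia-like cells of the same library kept a Hmox1 UMI, against 3.14% of T-like cells. Before thinning the microglia-like share was 66.5% and the T-like share 10.7%. The median cell held 5.15 Hmox1 UMIs per 10000 in the infiltrating-like macrophages, 1.39 in the microglia-like cells of brain S3 and 1.21 in those of brain D3.

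Blvrb, the gene of biliverdin reductase B, was led by a different class. Lyve1+ macrophages had 630.2 CPM in brain S3, 563 in brain D3, 695 in dura S3 and 584 in dura D3. Infiltrating-like macrophages followed at 317 CPM (95% interval 309.6 to 325), and Lyve1- macrophages had 183 CPM in brain S3, 232 in brain D3, 274 in dura S3 and 201 in dura D3. The 4 Lyve1+ groups were the 4 highest of all 59, and none of their intervals reached that of the infiltrating-like cells. B-like cells held 148 CPM in brain S3, 133 in brain D3, 222 in dura S3 and 193 in dura D3, above the 86.1 and 108 CPM of the microglia-like cells in S3 and D3. T-like cells were lower than both, with 24.2 CPM in brain S3, 19.1 in brain D3, 47.3 in dura S3 and 36.3 in dura D3.

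Slc48a1, the heme transporter of the phagolysosome, stood out in a single group. It reached 257 CPM (95% interval 250.4 to 264) in the infiltrating-like macrophages of brain D3, where 90.5% of cells held a UMI (32.6% at 2000 UMIs per cell). The next of the 59 groups was the cDC2-like cells of brain S3, a dendritic cell class that presents antigen to CD4 T cells, at 76.8 CPM. Microglia-like cells had 26.8 CPM in S3 and 37.0 in D3, close to the T-like and B-like cells at 22.8 and 28.0. Lyve1+ macrophages had 56.5 CPM in brain S3, 49.6 in brain D3, 71.2 in dura S3 and 63.1 in dura D3. The lowest of the 59 groups was the NK/ILC1-like cells of dura D3, at 12.2 CPM.

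Cd163, the receptor for haptoglobin-bound hemoglobin, marked the Lyve1+ macrophages in all 4 libraries, with 795 CPM in brain S3, 681 in brain D3, 667 in dura S3 and 719 in dura D3. Lyve1+ macrophages are the long-lived cells that line meningeal and perivascular spaces. The share of them with a Cd163 UMI was 86.2% in brain S3, 79.4% in brain D3, 77.2% in dura S3 and 76.6% in dura D3. Lyve1- macrophages held 29.6 CPM in brain S3, 9.75 in brain D3, 165 in dura S3 and 61.4 in dura D3. Infiltrating-like macrophages, at 5.77 CPM, and microglia-like cells, at 8.01 in S3 and 6.14 in D3, had almost none. So the 2 classes richest in Hmox1 in brain D3, the infiltrating-like and the Lyve1+ macrophages, lay at opposite ends of the macrophage classes for the hemoglobin receptor. T-like and B-like cells held 3.62 CPM in brain S3, 0 in brain D3, 5.97 in dura S3 and 12.2 in dura D3. In 6 of 59 groups no Cd163 UMI was counted, and 3 counts in a group would be a level between 1.67 and 11.1 CPM.

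Slc40a1, which encodes ferroportin, was highest in the Lyve1+ macrophages, with 235 CPM in brain S3, 164 in brain D3, 263 in dura S3 and 173 in dura D3. The neutrophil-like cells came next, with 141 CPM in brain S3, 89.7 in brain D3, 118 in dura S3 and 135 in dura D3, and the immature neutrophil-like cells had 74.7 CPM in brain S3, 59.9 in brain D3, 63.6 in dura S3 and 60.8 in dura D3. Microglia-like cells held 87.6 CPM in S3 and 60.9 in D3. The iron exporter was therefore shared by Lyve1+ macrophages, microglia-like cells and neutrophil-like cells. It was low in cells of the monocyte line, with 0.732 CPM in brain S3, 3.22 in brain D3, 1.09 in dura S3 and 2.26 in dura D3 in the Ly6C hi monocyte-like cells, all near or under the lymphoid level of 8.71, 3.03, 4.07 and 3.88 CPM. Infiltrating-like macrophages, with the highest Hmox1, held 10.9 CPM (95% interval 9.51 to 12.4). Lyve1- macrophages had 20.3 CPM in brain S3, 5.81 in brain D3, 47.6 in dura S3 and 6.23 in dura D3. No UMI was counted in 8 of 59 groups, where 3 counts would be 3.45 to 9.78 CPM.

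Slc11a1, the phagosomal metal pump, was found in monocyte-like, macrophage, microglia-like and neutrophil-like cells, but not at such levels in every myeloid class. Ly6C low monocyte-like cells, which patrol the vessel wall, had 255 CPM in brain S3, 333 in brain D3, 308 in dura S3 and 233 in dura D3. Infiltrating-like macrophages held 321 CPM (95% interval 314 to 329), an interval that overlapped those of Ly6C low cells in brain D3 and dura S3. Microglia-like cells had 207 in S3 and 145 in D3. Neutrophil-like cells had 138 CPM in brain S3, 113 in brain D3, 138 in dura S3 and 96.6 in dura D3, and Lyve1+ macrophages had 86.9 CPM in brain S3, 122 in brain D3, 135 in dura S3 and 127 in dura D3. Lymphoid cells held 6.57, 6.81, 6.24 and 6.66 CPM in brain S3, brain D3, dura S3 and dura D3, well under every value named above. The cDC2-like cells held 5.08 CPM in brain S3, 14.1 in brain D3, 4.92 in dura S3 and 13.7 in dura D3. Granulocyte precursor-like cells of the dura held 2.31 CPM in S3 and 1.08 in D3, from 5 and 1 UMIs.

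The ferritin chains had the most UMIs of the 10 genes in every group, at 1 counted end per transcript whatever its length. Fth1, the heavy chain, which oxidises iron as it enters the shell, reached 27202 CPM in the infiltrating-like macrophages. Ftl1, the light chain, which helps to form the iron core, reached 31106 CPM there. Together they made up 5.83% of all UMIs of that class, against 0.27% to 3.24% in the other 58 groups, and all 10 genes made up 6.16%. Lyve1- macrophages had 11644 CPM in brain S3, 18376 in brain D3, 8336 in dura S3 and 9440.5 in dura D3 for Fth1 and 7721 CPM in brain S3, 14014 in brain D3, 8272 in dura S3 and 7763 in dura D3 for Ftl1. Neutrophil-like cells had 10385 CPM in brain S3, 14796 in brain D3, 9888 in dura S3 and 9197 in dura D3 for Fth1 and 6141 CPM in brain S3, 6691 in brain D3, 5098 in dura S3 and 4401 in dura D3 for Ftl1. Microglia-like cells had 4758 CPM of Fth1 in S3 and 7550.4 in D3, and 6411 and 7924 CPM of Ftl1. Infiltrating-like macrophages were far above all of these for both chains. The lymphoid level was high for both, at 2069, 2735, 2667 and 3083 CPM for Fth1 and 1294, 1677, 1804 and 1906 for Ftl1 in brain S3, brain D3, dura S3 and dura D3. Ferritin genes have near-identical copies in the genome, so that reads can be split or shared among them. The 1 copy listed, Ftl1-ps1, held 0.790% as many UMIs as Ftl1 in all and followed it across groups. That share does not bound the uncertainty of Ftl1 or Fth1, since copies that are not listed leave no count here.

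The balance of the chains differed between classes. Capture may differ between genes, so the ratio of Fth1 to Ftl1 UMIs is read only from class to class. Neutrophil-like cells had 1.69 Fth1 UMIs per Ftl1 UMI in brain S3, 2.21 in brain D3, 1.94 in dura S3 and 2.09 in dura D3. The pDC-like cells of dura S3 and the ILC2-like cells of dura D3, an innate lymphoid class that makes type 2 cytokines, were highest, at 3.06 and 3.1. Infiltrating-like macrophages were lower than these at 0.875, as were the microglia-like cells at 0.742 in S3 and 0.953 in D3. Lyve1+ macrophages were low too, at 0.927 in brain S3, 0.949 in brain D3, 0.691 in dura S3 and 0.768 in dura D3. Ly6C hi monocyte-like cells stood at 0.806 in brain S3, 0.709 in dura S3 and 0.875 in dura D3, but at 1.77 in brain D3. Brain D3 was thus the library in which this class had its highest ratio.

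**Figure D1:**
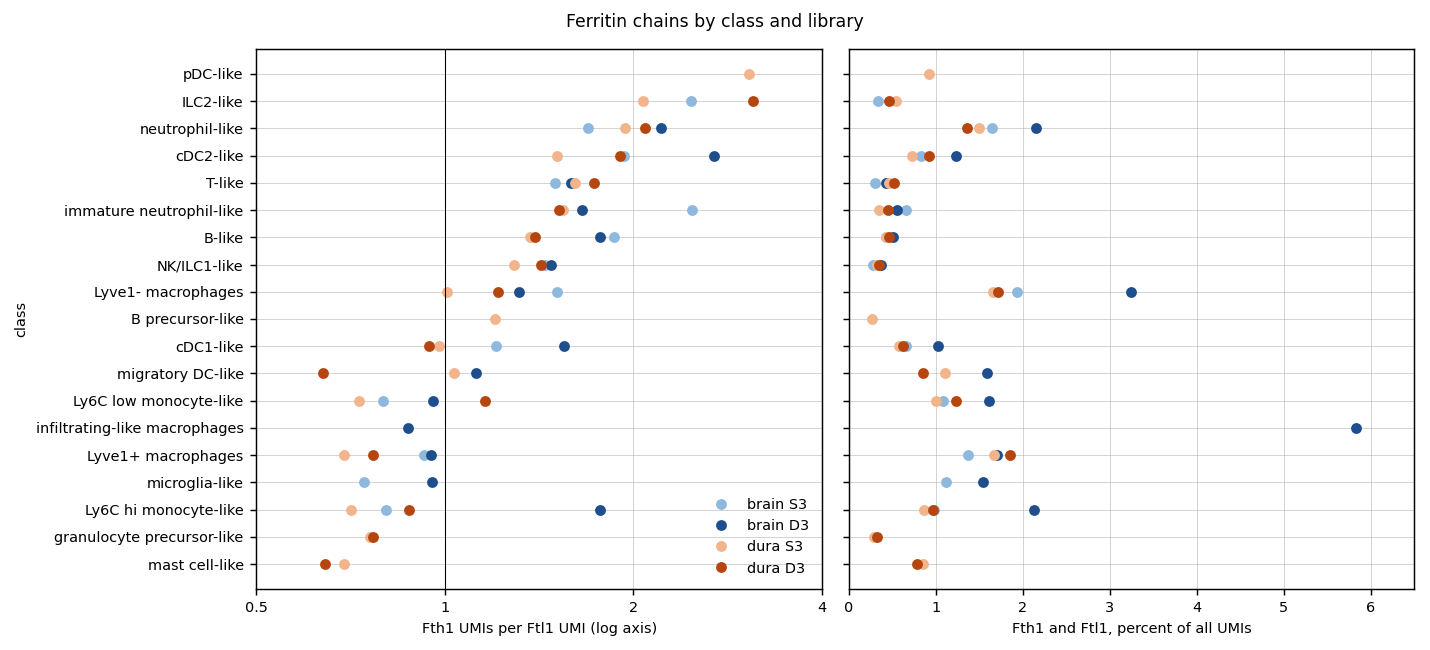
Left, Fth1 UMIs per Ftl1 UMI (log axis) by class, 1 point per library. Right, the summed share of Fth1 and Ftl1 in all UMIs of the group, in percent, where the infiltrating-like macrophages of brain D3 stand alone at 5.83%.

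Tfrc, the receptor that brings in transferrin-bound iron, was led by other cells. It was highest in the pDC-like cells of dura S3, the interferon-producing dendritic cells, at 191 CPM (95% interval 156 to 233). B precursor-like cells of dura S3 followed at 85.9 CPM (95% interval 72.3 to 101), and B-like cells had 22.8 CPM in brain S3, 22.1 in brain D3, 42.1 in dura S3 and 61.0 in dura D3. Infiltrating-like macrophages held little, at 5.23 CPM, as did microglia-like cells, at 5.01 in S3 and 4.38 in D3. Lyve1+ macrophages held more, with 15.9 CPM in brain S3, 23.0 in brain D3, 30.4 in dura S3 and 35.1 in dura D3. Their dura levels were above those of the brain B-like cells and under those of the dura B-like cells. Tfrc supports dividing cells, and B precursor-like cells with UMIs of at least 3 of 6 proliferation genes held 99.2 CPM (83.0 to 118) against 29.2 (12.6 to 57.6) in those with none. Immature neutrophil-like cells of all libraries had 25.7 (21.1 to 31.0) against 8.07 (5.84 to 10.9). The cells with such UMIs were also the deeper ones, with medians of 18034 against 6068.5 UMIs in the B precursor-like class, and the part of depth in this difference was not tested.

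Trf, the plasma iron carrier, is made mainly in the liver, and its RNA was present in every macrophage class here. Lyve1+ macrophages had 1391 CPM in brain S3, 1267 in brain D3, 1624 in dura S3 and 1654 in dura D3. Microglia-like cells had 1014 CPM in S3 and 692 in D3, and Lyve1- macrophages had 673 CPM in brain S3, 509.9 in brain D3, 943 in dura S3 and 888 in dura D3. Infiltrating-like macrophages held 676 CPM (95% interval 665 to 688), within the range of the resident classes. Its cDC2-like levels were 393 CPM in brain S3, 315 in brain D3, 564 in dura S3 and 458 in dura D3. Lymphoid cells held 27.2 CPM in brain S3, 23.5 in brain D3, 45.6 in dura S3 and 94.9 in dura D3.

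A set of 6 cells was kept out of the classes because hemoglobin exceeded 1% of their UMIs. Summed, they held 394 CPM of Tfrc, 1093 of Alas2 and 1944 of Blvrb, each above its level in every class. The erythroid genes Hba-a1, Hba-a2, Hbb-bs, Hbb-bt and Alas2 summed to 1.48 CPM in the infiltrating-like macrophages, with 1 of 5 genes at 0, and to 0 to 84.8 CPM over all groups. The limit of 1% hemoglobin applied to every class and in part fixes these low sums.

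In the injured brain, 7 of the 10 genes were at least 2-fold higher in the infiltrating-like macrophages than in the Ly6C hi monocyte-like cells of the same library and none was 2-fold lower. Over all genes with at least 50 UMIs, 12.5% were at least 2-fold higher and 9.55% 2-fold lower. The comparison asks how macrophages that carry Arg1 and Gpnmb differ from the monocytes found beside them. Slc48a1 had the largest log2 ratio, 2.86 (2.62 to 3.11), with 257 against 35.4 CPM. Hmox1 followed at 2.35 (2.27 to 2.43), then Ftl1 at 2.02 (2.0 to 2.03) and Blvrb at 1.94 (1.78 to 2.11). The heme transporter, the heme oxygenase, biliverdin reductase B and light ferritin were all higher in the macrophages. Slc40a1 was at 1.76 (0.95 to 2.69) from 221 and 13 UMIs, Trf at 1.64 (1.54 to 1.74) and Slc11a1 at 1.02 (0.90 to 1.14). Fth1 lay just under the 2-fold line at 1.0 (0.99 to 1.01), next to Slc11a1 just above it. Cd163 was at 0.84 (0.011 to 1.79), and the interval of Tfrc spanned 0. The median over the 10 genes was 1.70 against 0.0075 over all genes measured.

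Set against the microglia-like cells of the same library, 6 of the 10 genes were at least 2-fold higher in the infiltrating-like macrophages and 1 was 2-fold lower, where 8.83% and 18.7% of all genes measured were. Slc48a1 was at 2.80 (2.60 to 3.00), Hmox1 at 2.24 (2.18 to 2.31), Ftl1 at 1.97 (1.96 to 1.99), Fth1 at 1.85 (1.83 to 1.86), Blvrb at 1.55 (1.43 to 1.67) and Slc11a1 at 1.15 (1.05 to 1.26) on the log2 scale. Slc40a1 went the other way at -2.48 (-2.73 to -2.23), with 10.9 against 60.9 CPM. Genes of heme breakdown and iron storage were thus higher in the infiltrating-like cells, and the iron exporter was higher in microglia. Trf (-0.032, interval -0.084 to 0.019), Cd163 (-0.090, interval -0.65 to 0.50) and Tfrc (0.25, interval -0.39 to 0.94) had intervals that spanned 0. When classes were taken from clusters, which add P2ry12-low cells to the microglia, the ratios were 0.63 for Hmox1, 1.90 for Slc48a1, 1.04 for Fth1 and -2.05 for Slc40a1. Markers of immediate early and heat shock genes, which are induced when tissue is dissociated, summed over 12 genes to 8769 CPM in the infiltrating-like cells and 17111 in the microglia-like cells, and their part in Hmox1, itself a stress gene, was not tested.

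Compared with the Lyve1- macrophages of brain D3, the infiltrating-like macrophages had log2 ratios of 2.31 (2.24 to 2.38) for Hmox1, 2.05 (1.88 to 2.23) for Slc48a1, 1.15 (1.14 to 1.16) for Ftl1 and 1.07 (0.21 to 2.07) for Tfrc, the last from 106 and 12 UMIs. Cd163 was lower at -0.76 (-1.26 to -0.24), and the other 5 genes were higher by 0.41 (Trf) to 0.91 (Slc40a1). Genes at least 2-fold higher were 4.99% of all genes measured in this comparison. The classes are not wholly apart: 46.4% of the Lyve1- macrophages of brain D3 fell in the same cluster as 97.3% of the infiltrating-like cells, cluster 20. The infiltrating-like marker list summed to 2343 CPM in these Lyve1- macrophages and to 222 in those of brain S3, and its part in their levels was not tested.

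**Figure D2:**
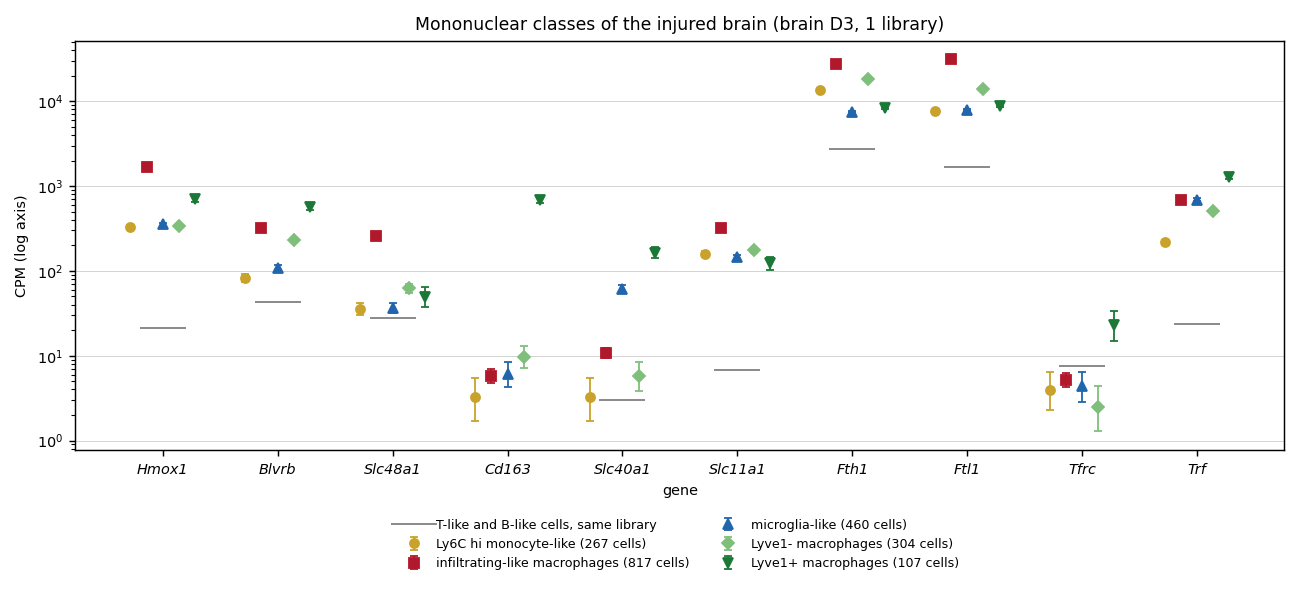
Level of each gene (CPM, log axis) in the mononuclear classes of brain D3, 1 point per class with its 95% Poisson interval. The infiltrating-like macrophages are highest for Hmox1, Slc48a1, Fth1 and Ftl1, and the Lyve1+ macrophages for Blvrb, Cd163, Slc40a1 and Trf.

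Between injured and control brain, Hmox1 of the microglia-like cells was 353 CPM in D3 against 701 in S3, a log2 ratio of -0.99 (-1.07 to -0.91). The median cells of S3 and D3, given above, differed less in Hmox1, whose UMIs were concentrated in a part of the S3 cells. The interval does not cover this spread between cells. Trf (-0.55, interval -0.62 to -0.49), Slc40a1 (-0.53, interval -0.74 to -0.31) and Slc11a1 (-0.52, interval -0.66 to -0.38) were lower in D3 as well. Both ferritin chains were higher, Fth1 by 0.67 (0.64 to 0.69) and Ftl1 by 0.31 (0.28 to 0.33), as were Slc48a1 at 0.47 (0.12 to 0.82) and Blvrb at 0.33 (0.14 to 0.53). None of the 9 genes with at least 50 UMIs reached 2-fold, where 5.58% of all genes measured did. The intervals of Cd163 and Tfrc spanned 0. Over the 10 genes the median log2 ratio was -0.29, against -0.12 over all genes, and it turned to 0.12 with clusters, 0.076 after thinning to 2000 UMIs and 0.29 with the lymphoid CPM subtracted. The dissociation list was lower in D3, at 30392 CPM in S3 and 17111 in D3. Higher in D3 were the infiltrating-like marker list, at 47.1 and 534 CPM with 1 and 0 of 6 genes at 0, and the list of 6 proliferation genes, at 12.3 and 315 CPM. The part of these lists in the ratios was not tested.

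The direction of Hmox1 in microglia depended on how the cells were chosen. Clusters placed the cells in cluster 12, high in P2ry12 (2317 CPM in S3), and cluster 13, low in P2ry12 (645 CPM in S3). Cluster 12 had 352 cells in S3 and 317 in D3, and cluster 13 had 78 and 359, whereas of the gated microglia-like cells of D3 68.3% lay in cluster 12 and 31.3% in cluster 13. Hmox1 went from 766 to 521 CPM in cluster 12 and from 708 to 924 CPM in cluster 13. Over both clusters together the D3 over S3 log2 ratio of Hmox1 was 0.17. Hmox1 of D3 was thus lower than in S3 in the P2ry12-high cluster and higher in the P2ry12-low cluster. The gated cells of D3, at 353 CPM, lay under both clusters of that library and took in 144 of the 359 cells of cluster 13. The part of the choice of cells within cluster 13 in the gated ratio was not tested.

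Both ferritin chains and Slc48a1 differed more between the 2 microglia-like clusters of a library than between S3 and D3 of a cluster. Fth1 was 4283 CPM in S3 and 5232 in D3 in cluster 12, and 8677 and 14417 in cluster 13. Ftl1 was 6095 and 7061 in cluster 12, and 9317 and 13157 in cluster 13. Ferritin was higher in cluster 13 in both libraries, and highest there in D3. Slc40a1 was 93.7 CPM in S3 and 89.97 in D3 in cluster 12, but 106 and 39.8 in cluster 13. Slc48a1 was 27.0 and 29.7 in cluster 12, and 48.5 and 61.5 in cluster 13. Spp1, a gene of activated microglia and also an infiltrating-like marker, was 304 CPM in S3 and 3366 in D3 in cluster 13. Cluster 13 of D3 thus held more ferritin and heme transporter RNA and less ferroportin RNA than cluster 12 of the same library, as the infiltrating-like cells did against gated microglia. A cluster is defined by its own genes, so these values are a description.

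Lyve1+ macrophages differed little between injured and control tissue. In the brain no gene of the 9 with at least 50 UMIs differed 2-fold (2.88% of all genes measured did), and in the dura none of the 10 did (2.26% of all genes). Slc40a1 was lower after injury in both tissues, at -0.52 (-0.83 to -0.20) in the brain and -0.61 (-0.76 to -0.46) in the dura on the log2 scale. Fth1 was higher in both, by 0.33 (0.28 to 0.38) and 0.24 (0.22 to 0.27). Hmox1 was -0.25 in the brain and 0.23 (0.14 to 0.33) in the dura, and Cd163 was -0.22 and 0.11 (0.024 to 0.19). These opposite signs were lost with clusters, where the brain ratios became 0.025 for Hmox1 and 0.079 for Cd163. Ftl1 was 0.30 (0.25 to 0.35) in the brain and 0.090 (0.068 to 0.11) in the dura, and Blvrb -0.16 (-0.34 to 0.016) and -0.25 (-0.34 to -0.16). Slc11a1 (0.49, interval 0.045 to 0.95) was higher and Trf (-0.13, interval -0.25 to -0.015) lower in the injured brain, and their dura intervals spanned 0, as did those of Slc48a1 and Tfrc in both tissues. Medians over the genes were -0.15 in the brain and 0.058 in the dura, against -0.042 and -0.065 over all genes. With cells thinned to 2000 UMIs, the brain ratio of Slc40a1 became 0.018, from 65 cells in S3 and 107 in D3.

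Lyve1- macrophages of the dura gave the lowest injured over control ratio in that tissue, among the 10 genes with at least 50 UMIs in a class. Slc40a1 was 47.6 CPM in S3 and 6.23 in D3, from 67 and 13 UMIs, a log2 ratio of -2.93 (-3.92 to -2.06). Cd163 was 165 and 61.4 CPM, a ratio of -1.43 (-1.75 to -1.11). These were the 2 of 9 genes that reached 2-fold, both lower, where 0.863% of all genes measured were 2-fold lower. Both genes are marks of the Lyve1+ macrophages, whose marker list was also lower in these cells, at 2063 CPM in S3 and 1589.6 in D3. With a gate margin of 1 in place of 0.5 the ratios were -0.38 and -0.63, and with clusters -1.59 and -0.10. The part of cells between the 2 macrophage classes in these ratios was not tested. Blvrb (-0.45, interval -0.65 to -0.24), Slc48a1 (-0.63, interval -1.11 to -0.14) and Ftl1 (-0.092, interval -0.13 to -0.057) were lower too, Fth1 (0.18, interval 0.15 to 0.21) was higher, and the intervals of Hmox1, Slc11a1, Trf and Tfrc spanned 0. The median over the genes was -0.13 against -0.073 over all genes.

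In the brain the same class gave -1.81 (-2.58 to -1.05) for Slc40a1 and -1.60 (-2.21 to -1.0) for Cd163, with 3.53% of all genes 2-fold lower, and Ftl1 and Fth1 at 0.86 (0.83 to 0.89) and 0.66 (0.64 to 0.68). Here 88.1% of the S3 cells lay in cluster 3, against 41.8% of the D3 cells, while 46.4% of the D3 cells lay in cluster 20 with the infiltrating-like cells.

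Among genes with at least 50 UMIs, Fth1 differed most in the brain's Ly6C hi monocyte-like cells, where it was 4373 CPM in S3 and 13604 in D3, a log2 ratio of 1.64 (1.61 to 1.67). In the dura the same class had 3589 and 4543 CPM, a ratio of 0.34. Slc11a1 was 77.9 and 159 CPM in the brain, at 1.03 (0.80 to 1.26). These 2 of 7 genes were at least 2-fold higher and none was 2-fold lower, where 4.55% and 3.8% of all genes measured were. Ftl1 differed less, at 0.50 (0.47 to 0.53), as did Blvrb at 0.41 (0.14 to 0.68) and Hmox1 at 0.29 (0.16 to 0.42), while Slc48a1 was lower at -0.40 (-0.76 to -0.046). Trf, Tfrc and Slc40a1 had intervals that reached 0, and Cd163 rested on 1 UMI in S3 and 13 in D3. The infiltrating-like marker list summed to 1137 CPM in these cells in S3 and 2463 in D3, and 12.7% of them in D3 lay in cluster 20. The dissociation list summed to 16079 CPM in S3 and 8214 in D3, and the part of these in the ratios was not tested. With clusters the ratio of Fth1 was 1.12 and that of Hmox1 -0.072. The lymphoid log2 ratio of Fth1 was 0.40 in the brain and 0.21 in the dura. Over the genes with at least 10 UMIs the median was 0.76, against -0.084 over all genes with at least 50 UMIs. The former took in Cd163, Slc40a1 (13 UMIs in D3 and 2 in S3) and Tfrc (16 and 4), which fall short of 50.

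Neutrophil-like cells of the brain had 58.5 CPM of Hmox1 in S3 and 154 in D3, a log2 ratio of 1.40 (1.01 to 1.80), and 46.1 and 75.8 CPM in the dura, a ratio of 0.72. Hmox1 was the 1 of 8 genes that reached 2-fold in the brain, where 9.31% of all genes were 2-fold higher. Blvrb (0.73, interval 0.077 to 1.40) and Fth1 (0.51, interval 0.48 to 0.54) were higher, and Slc40a1 (-0.65, interval -1.01 to -0.30) and Trf (-0.47, interval -0.74 to -0.20) were lower, in D3. Ftl1 was 0.12 (0.079 to 0.17) but turned below 0 with clusters, the stricter gate, thinning and means over cells, at -0.15 to -0.0014. The intervals of Slc48a1, Slc11a1, Tfrc and Cd163 spanned 0. The Lyve1- macrophage marker list, in which all 6 genes had UMIs, summed to 425 CPM in S3 and 1174 in D3 in the brain and to 556 and 996 in the dura. The Ly6C hi list summed to 371 CPM in S3 and 715 in D3 in the brain and to 454 and 445 in the dura, and the part of macrophage and monocyte RNA in the Hmox1 of neutrophil-like cells was not tested. Of the D3 cells 45.2% lay in cluster 22 and 39.4% in cluster 28, while 88.8% of the S3 cells lay in cluster 22. The median ratio, of 9 genes that had 10 UMIs or more, came to 0.40 against -0.0042 for all genes with at least 50 UMIs.

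**Figure D3:**
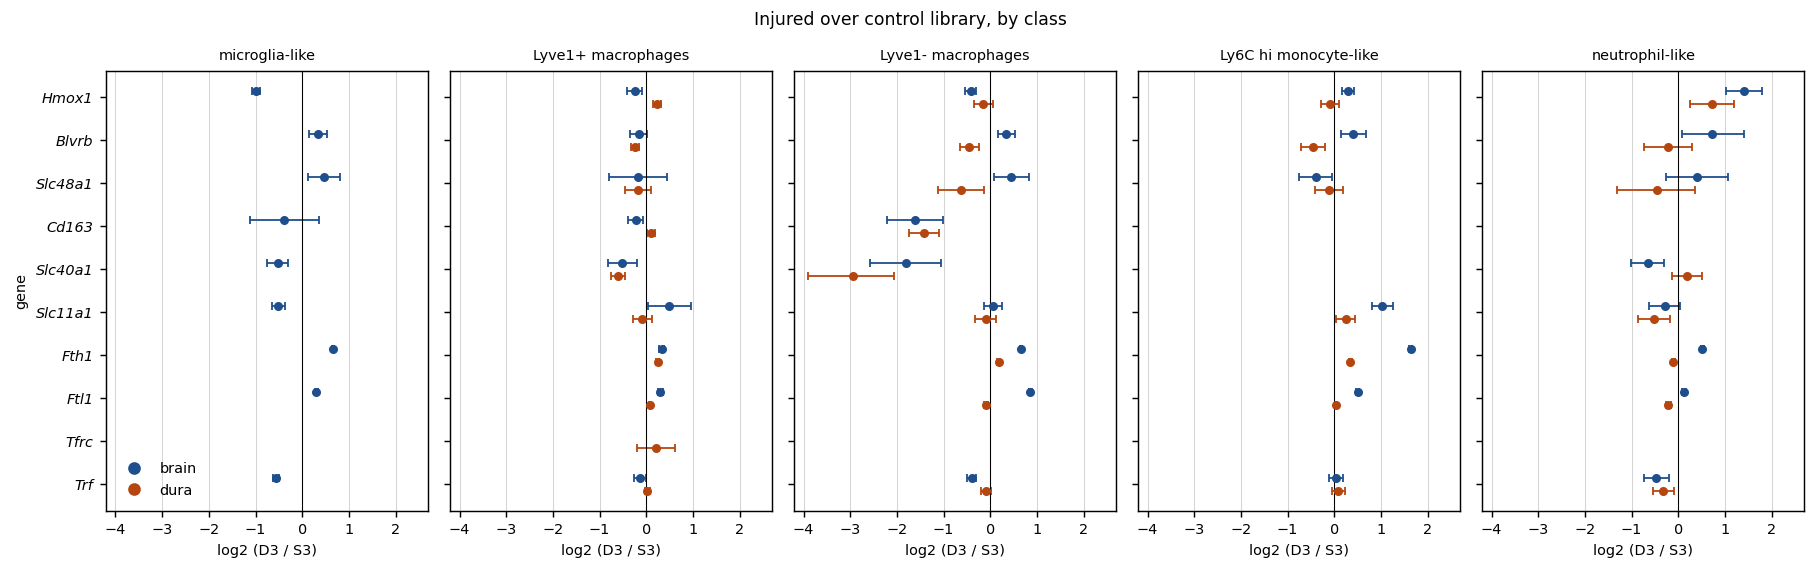
Injured over control log2 ratio of each gene by class, with the exact 95% interval for counting error, in brain and dura. The highest ratio drawn for Fth1 is that of brain Ly6C hi monocyte-like cells at 1.64, and the lowest for Slc40a1 is that of the Lyve1- macrophages of the dura at -2.93.

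Class by class, the ferritin chains were higher in the most brain classes of the 10 genes. In brain D3 against S3 the interval of Fth1 lay above 0 in 11 of 12 classes and below 0 in 1, the immature neutrophil-like cells, and that of Ftl1 lay above 0 in 12 of 12, the smallest being the neutrophil-like one, which turned below 0 under 4 other settings. Of the genes measured in at least 11 of the classes, 0.371% were higher in 11 or more. For this share and that of the dura, 10 UMIs in a class were enough. Genes with few UMIs clear 0 less often than ferritin at the same ratio. Lymphoid cells also had higher ferritin, with 0.40 for Fth1 and 0.37 for Ftl1, and the part of free RNA in the small ratios was not tested. Slc40a1 was lower in 7 of 11 brain classes and higher in 0, and Trf lower in 7 of 12 and higher in 0, where 2.2% of genes were lower in 7 or more. The lymphoid ratio of Slc40a1 in the brain was -1.52 (-3.44 to -0.099), from 4 UMIs in D3 and 65 in S3. T-like and NK/ILC1-like cells were among the classes with lower Slc40a1, and the part of free RNA was not tested. Hmox1 was higher in 6 and lower in 3 of 12 brain classes. In the dura Fth1 was higher in 11 of 15 classes and lower in 3, where 0.138% of genes measured in all 15 were higher in 11 or more, and Hmox1 was higher in 5 of 14 and lower in 0. Ftl1 was less uniform there, higher in 7 of 15 classes and lower in 4. Of 74 pairs of a gene and a class with at least 50 UMIs in each tissue, 11 had intervals on opposite sides of 0 in brain and dura, where 2.2% of 54426 such pairs over all genes did, and genes with many UMIs, as ferritin, have narrow intervals that clear 0 more often. Classes of 1 library share its preparation and are not replicates of each other.

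The resident cells of the control brain divided these genes between them. Compared with microglia-like cells of brain S3, Lyve1+ macrophages had 4 of 9 genes at least 2-fold higher and 1 at least 2-fold lower, where 8% and 10.5% of all genes measured were. Cd163 was at 6.63 (6.12 to 7.20), Blvrb at 2.87 (2.66 to 3.08), Slc40a1 at 1.42 (1.14 to 1.69) and Slc48a1 at 1.08 (0.51 to 1.62) on the log2 scale, and Slc11a1 at -1.25 (-1.65 to -0.87). Genes of hemoglobin uptake, biliverdin reductase B and iron export were thus higher in the Lyve1+ macrophages, and that of the phagosomal pump in microglia. Fth1 (0.47, interval 0.42 to 0.51), Trf (0.46, interval 0.35 to 0.56), Hmox1 (0.25, interval 0.12 to 0.38) and Ftl1 (0.15, interval 0.10 to 0.19) differed by less, and Tfrc was at 1.67 (0.46 to 2.80) from few UMIs. The median over the genes was 0.77 against -0.0048 over all genes.

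Lyve1+ macrophages of the control dura and brain were alike in scale, with 0 of 10 genes 2-fold apart, where 7.3% of all genes measured were. Dura over brain, Slc11a1 was at 0.64 (0.23 to 1.06), Ftl1 at 0.48 (0.43 to 0.52), Trf at 0.22 (0.12 to 0.33), Cd163 at -0.25 (-0.40 to -0.11) and Hmox1 at -0.55 (-0.69 to -0.41). Tfrc was at 0.93 (0.0053 to 2.0) from few UMIs, Fth1 was at 0.054 (0.0062 to 0.10), and the intervals of Blvrb, Slc48a1 and Slc40a1 spanned 0. Tissue and library cannot be told apart in this comparison.

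Of 43 other genes of heme and iron metabolism, between 16 and 33 had at least 50 UMIs in a comparison, and between injured and control cells 0 to 3 reached 2-fold. In microglia-like cells, D3 over S3, 1 of 31 was higher, the metal importer Slc39a14 at 1.83, and 1 was lower, ceruloplasmin (Cp), which oxidises iron as it leaves ferroportin, at -1.17. In Ly6C hi monocyte-like cells of injured over control brain 3 of 25 were higher, Slc39a14 at 3.29, Alas1, the first enzyme of heme synthesis, at 1.11 and Lcn2, which binds bacterial iron carriers, at 1.08. Neutrophil-like cells of the brain had 2 of 19 higher, the reductase Steap4 at 2.28 and the hemopexin receptor Lrp1 at 1.42. In the Lyve1+ macrophages of the brain 1 of 16 was higher, haptoglobin (Hp) at 1.42 from 48 UMIs in D3 and 11 in S3. Hp was highest in the neutrophil-like cells of dura D3, at 3054 CPM, and the part of free RNA in this ratio was not tested. In the dura 0 of 33 differed 2-fold in the Lyve1+ macrophages and 0 of 24 in the Lyve1- macrophages. Over all genes measured, 3.76% were 2-fold higher and 1.83% lower in microglia-like cells. In the brain 4.55% were higher in Ly6C hi cells, 9.31% in neutrophil-like cells and 1.73% in Lyve1+ macrophages. In the dura 2.26% differed either way in Lyve1+ and 1.42% in Lyve1- macrophages.

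More reached 2-fold between classes, where more of all genes measured did too. Of all genes, infiltrating-like macrophages had 12.5% higher and 9.55% lower against Ly6C hi monocyte-like cells, and 8.83% and 18.7% against microglia-like cells. For Lyve1+ macrophages against microglia-like cells of brain S3 the shares were 8% and 10.5%. Infiltrating-like macrophages against Ly6C hi monocyte-like cells had 3 of 32 higher, the importer Slc39a8 at 2.37, the heme synthesis enzyme Alad at 1.36 and the mitochondrial iron importer Slc25a37 at 1.05, and 2 lower, Hp at -4.38 and Lcn2 at -2.72. Against microglia-like cells 5 of 33 were higher, led by Spic, the transcription factor of red pulp macrophages, at 2.81 from 50 and 2 UMIs, Hp at 2.0 and the ferrireductase Steap3 at 1.81. In that comparison 6 were lower, led by the heme and folate carrier Slc46a1 at -4.13, the heme exporter Abcg2 at -3.13 and Slc39a8 at -2.33. Lyve1+ macrophages against microglia-like cells of brain S3 had 5 of 28 higher, led by Cp at 5.24, biliverdin reductase A (Blvra) at 1.82 and the ferritin receptor Ncoa4 at 1.38, and 6 lower, led by Slc46a1 at -2.16, Lrp1 at -1.67 and Abcg2 at -1.27. Between Lyve1+ macrophages of dura and brain S3, 1 of 26 was higher in the dura, where 5.35% of all genes measured were. It was Lcn2, at 1.89 from 74 UMIs in the dura and 6 in the brain. Lcn2 was highest in the immature neutrophil-like cells of dura D3, at 18270 CPM, and the part of free RNA in its ratios was not tested. Ceruloplasmin was highest in the Lyve1+ macrophages of brain S3, at 312 CPM, where Slc40a1 was high too. Slc46a1 and Abcg2 were highest in the microglia-like cells of brain S3, at 51.8 and 41.8 CPM.

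Across the 59 groups, each gene had nearest genes by the Pearson correlation of log2(CPM + 1) among 8388 genes. The groups share libraries and cell lineages, so these are descriptions with no test. Hmox1 was most like Lipa (0.91), Ctsb (0.90) and Hexa (0.89), which encode lysosomal enzymes, and Slc11a1 was most like Tlr13 (0.91), Rin2 (0.87) and Hmox1 itself (0.86). Cd163 was most like Mrc1 (0.90), a marker used by the Lyve1+ gate, Dab2 (0.86) and C4b (0.85), and Trf was most like Tbxas1, Csf1r and Cd302 (each 0.91). Csf1r is the growth factor receptor of macrophages. Slc40a1 was most like Gm38843 (0.81), C5ar2 (0.79) and C5ar1 (0.78), the complement receptors of neutrophils and macrophages. Fth1 was most like Gabarap (0.86), Sdcbp (0.84) and Ftl1 (0.84), and Ftl1 most like Ftl1-ps1 (0.95), Bri3 (0.90) and Arl8a (0.88). The nearest genes of Blvrb were Snx8 (0.84) and Snx2 (0.82). Slc48a1 (Tceal8 and Vat1 at 0.72, Uap1l1 at 0.69) and Tfrc (Rfc1 at 0.76, Phf2 and Ripor1 at 0.71) had looser neighbours.

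Within the 813 infiltrating-like macrophages with at least 5000 UMIs, thinned to that number, Spearman's rho was 0.48 between Fth1 and Ftl1, 0.44 between Slc48a1 and Ftl1 and 0.42 between Hmox1 and Ftl1. Cells of 1 library rich in Hmox1 or Slc48a1 thus also tended to be rich in light chain ferritin RNA.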

How the data were processed

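CD45+ cells of 4 libraries (brain S3, brain D3, dura S3, dura D3) were profiled by 10X 3′ sequencing, and the study's methods name Cell Ranger 3.1.0, mm10 and Seurat 3.1.0. The values deposited by the authors are on a natural log scale, ln(1 + x), where x is UMIs per 10000 in that cell, and each listed gene is found in at least 3 cells. Undoing the logarithm, with each cell's lowest value taken as 1 UMI, gave whole numbers for 100% of values within 1e-06, and these UMIs were used throughout. No count model was fitted.

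The filter passed cells with 1000 to 6000 genes whose mitochondrial share was 7% or less, and doublets were removed by Scrublet score at 0.8% per 1000 cells, since its automatic threshold marked 0 to 0.0634%. Of 4734, 5925, 4795 and 3515 barcodes, 3618, 4438, 3439 and 2603 remained, with medians of 8252 to 14269.5 UMIs, and library totals were 49003977 to 115154317 UMIs. A cell joined the class with the highest mean z-scored level of its 6 markers where that score exceeded 0.5, led the next by at least 0.5, had at least 3 markers detected and no other lineage above 1, and where hemoglobin was at most 1%. This scoring rule was set after the values were seen. An alternative took classes from 33 clusters built without the 10 genes, and 8619 cells had the same name both ways and 547 different names.

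CPM carry exact Poisson intervals, shares Clopper-Pearson intervals, and ratios exact conditional intervals, all at 95%. Medians over the 10 genes use those with at least 10 UMIs, both groups together. Medians over all genes and 2-fold counts use those with at least 50, so the 2 medians set side by side rest on unlike minima. The classes were microglia-like, Lyve1+, Lyve1- and infiltrating-like macrophages, Ly6C hi and Ly6C low monocyte-like, neutrophil-like, immature neutrophil-like, granulocyte precursor-like, cDC1-like, cDC2-like, migratory DC-like, pDC-like, NK/ILC1-like, T-like, ILC2-like, B-like, B precursor-like and mast cell-like. Check lists covered proliferation, erythroid, oligodendrocyte, astrocyte and choroid plexus, fibroblast and endothelium, and dissociation stress genes. All 10 genes were named in 10 comparisons, and some in the others, with up to 3 other heme and iron genes per direction past 2-fold, and the 3 nearest genes by correlation. Of these, 2 genes are not reported here. The 10 genes, lists and comparisons were chosen with earlier results of these data known. Python 3.11.15, numpy 2.4.6, scipy 1.17.1, pandas 2.3.3, scanpy 1.11.5 and matplotlib 3.10.9 were used, and the ratio code was tested on simulated data. Alternatives were clusters, a stricter gate, thinning to 2000 UMIs, no cell filter, doublets kept, lymphoid CPM subtracted, another total, means over cells and no UMI minimum.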

Additional observations from a re-analysis of the deposited data

Results flagged for a closer look

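For 11 pairs of a gene and a class, the injured over control log2 ratio had intervals on opposite sides of 0 in brain and dura, each from at least 50 UMIs. They are 11 of 74 pairs with that many UMIs in each tissue, beside 20 pairs higher in both tissues and 5 lower in both. Over all genes 2.2% of such pairs had opposite intervals, but genes with many UMIs, as ferritin, have narrow intervals that clear 0 more often. The difference between tissues was not tested, as each is 1 pair of libraries.

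In the Lyve1+ macrophages, Hmox1 was -0.25 in the brain and 0.23 in the dura, and Cd163 was -0.22 and 0.11, but with clusters the brain values were 0.025 and 0.079, of the same sign as the dura. In the Lyve1- macrophages, Blvrb was 0.34 and -0.45, Slc48a1 0.45 and -0.63, and Ftl1 0.86 and -0.092, with 46.4% of the brain D3 cells in the cluster of the infiltrating-like macrophages. In monocytes, Blvrb of the Ly6C hi cells was 0.41 and -0.46, and Slc11a1 of the Ly6C low cells was 0.38 and -0.40. In the neutrophil-like cells, Fth1 was 0.51 and -0.10, and Ftl1 0.12 and -0.21, where the brain value of Ftl1 turned below 0 with clusters, the stricter gate, thinning and means over cells. In the immature neutrophil-like cells, Slc11a1 was -0.70 and 0.67, and Fth1 -0.44 and 0.37, against the direction of Fth1 in the 11 other brain classes. Their second cluster in the brain was cluster 25 in S3, with 34.3% of cells, and cluster 19 in D3, with 34.1%. Cluster 19, named granulocyte precursor-like, held 21.5% of them in dura S3 and 19.8% in dura D3. The proliferation list summed to 495 CPM in brain S3, 1211 in brain D3, 853 in dura S3 and 665 in dura D3. The part of these in the ratios was not tested.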

How the results depend on the processing

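No paired analysis was possible because each condition is 1 library. With classes from clusters 83 of 99 gene ratios kept their sign, against 92 of 99 with the stricter gate, 84 of 94 after thinning, 96 of 100 with all barcodes, 97 of 100 with doublets kept, 83 of 87 with lymphoid RNA subtracted, 100 of 100 with another total and 95 of 100 as means over cells. Ratios moved by over 1.5 times in 16 of 99 with clusters and 16 of 87 with subtraction. The median over the genes became -0.0056 in the Lyve1- macrophages of the dura, 1.92 for infiltrating-like macrophages over Ly6C hi cells and 0.76 over microglia with clusters. It became 1.92 and 1.93 with the stricter gate, 2.29 and 2.06 after subtraction, and over microglia 1.21 after thinning and 1.23 as means over cells. Hmox1 of the infiltrating-like macrophages was 1301 CPM with clusters, 1887 with the stricter gate, 1652 with all barcodes, 1651 after subtraction and 2079 with another total. Signs reversed with clusters for Hmox1 in microglia (0.17), Lyve1+ macrophages of the brain (0.025), Ly6C hi cells (-0.072) and Lyve1+ macrophages over microglia (-0.040), for Cd163 in Lyve1+ macrophages of the brain (0.079) and for Ftl1 in neutrophils (-0.0014). Ftl1 in neutrophils was also -0.15 with the stricter gate, -0.086 after thinning and -0.092 as means over cells. Fth1 of Lyve1+ macrophages, dura over brain, was -0.037 with the stricter gate and -0.12 after subtraction, and Fth1 of dural Lyve1- macrophages was -0.00026 with doublets kept. Thinning gave 0.018 for Slc40a1 and 0.089 for Trf in Lyve1+ macrophages of the brain. Microglia cluster 13 alone, an alternative chosen after seeing the data, gave 0.38 for Hmox1 and -0.080 for Blvrb. Beyond the different cells that clusters and gates admit, the cause was not tested. Depth limits Tfrc and Cd163 most, which rest on few UMIs outside their main classes, and no setting supplies the missing spread between mice.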
